A study of Mus musculus with 6 samples.

Results

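G protein-coupled receptors cross the cell membrane 7 times and pass signals from outside the cell to G proteins inside it. The genes described here are the orphan, adhesion and lipid receptors of that superfamily, with the nucleotide, endothelin and R-spondin receptors beside them. They were taken from the deposited table by symbol, as every gene whose name starts with Adgr, Gpr, Lgr, S1pr, Lpar or P2ry and carries a number or subtype letter in its usual place, together with Ednra and Ednrb, and Gpr17 was left out. The rule took 86 of 22057 genes in the table. By name and known role, 17 were adhesion receptors, 10 were receptors for the lysophospholipids sphingosine 1-phosphate (S1P) and lysophosphatidic acid (LPA), 5 were P2Y nucleotide receptors, 2 were endothelin receptors and 3 were LGR receptors. A further 9 carry a Gpr name but belong with proteins known mainly from the Golgi, lysosomes or other inner membranes. Among these, Gpr137b-ps is annotated as a transcribed pseudogene. The remaining 40 were other Gpr-named genes, most of them orphans.

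The cells were cultured mouse neural progenitors labelled p53-null, which lack the tumour suppressor encoded by Trp53 and divide to give neurons and glia. In the PDGFA group (n = 3), cells of mice 62, 68 and 69 spent 4 days in stem cell medium with platelet-derived growth factor A. In the EF group (n = 3), cells of the same mice spent 4 days in stem cell medium with EGF, FGF and heparin, which the design text names as the control. Both groups carry the p53-null genotype, so no comparison with cells that have p53 was possible, and the labels give neither the strain, the age nor the deleted part of the gene.

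S1P and LPA are membrane-derived lipids that act through small receptor families, on blood vessels, lymphocytes and neural cells among others. Adhesion receptors carry a long outer part that binds matrix or neighbouring cells, and several are known from myelination, synapse formation and progenitor cells. An orphan receptor is one whose natural ligand is unknown or disputed, and some signal without any ligand. In the brain, astrocytes, oligodendrocytes and their precursors, microglia and vessels each carry a different selection of these receptors.

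PDGFA libraries were the deeper ones, at 34812800 to 39601349 recovered reads, against 27270246 to 30151469 in EF libraries. Values are normalized counts, that is reads divided by 1 size factor per library, and they are given in the order of mice 62, 68 and 69 throughout. The EF libraries differed more among themselves, with a median SD over tested genes of 0.172 on the log2 scale in PDGFA and 0.38 in EF. One EF library, that of mouse 68, stood apart for the receptors. It was the highest of the 3 EF libraries for 42 of 69 tested receptor genes (60.9%), against 24% of all tested genes. Pdgfra and Cspg4, from a list of 9 markers of oligodendrocyte precursors, were also highest in that EF library among the EF libraries. They were picked as examples, and how many of the 9 did so was not counted. Pdgfra had 15697, 17128 and 7987 normalized counts in PDGFA libraries, against 861, 14133 and 533 in EF libraries, and Cspg4 had 4646, 3746 and 3138 in PDGFA libraries, against 9962, 30164 and 7218 in EF libraries. Their part in the receptor values of that library was not tested. Trp53 itself had 1122, 988.3 and 1099 normalized counts in PDGFA libraries, against 2187, 1672 and 2383 in EF libraries. Without the deleted part in the labels, those reads check nothing about the genotype.

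Receptor genes shifted in both directions. Of 86 genes, 69 reached a mean of 10 normalized counts over the 6 libraries and were tested, and 17 did not. With limma and Benjamini-Hochberg adjustment over all 17068 tested genes, 22 of 69 rose in PDGFA (31.9%, against 21.8% of all tested genes). Another 15 fell (21.7%, against 18% of all tested genes), a share near that background, and 32 were not called. A change of at least 2-fold was called for 21 that rose and 15 that fell, against backgrounds of 15.5% and 12.1%. The PDGFA libraries lay above all EF libraries for 26 receptor genes (37.7%, against 29.2% of all tested genes) and below them for 16 (23.2%, against 26.3%). The median size of the log2 fold change, either sign, was 1.25 among tested receptor genes and 0.61 among all tested genes. All 37 called genes moved the same way in the 3 mice. That follows from their groups, none of which overlapped, and is no further support. In bulk RNA, fewer cells of a type and less RNA per cell cannot be told apart. The 69 include 7 genes whose mean was under 10 in one of the groups, so they passed the filter through the group where they were high. Among these were Gpr25, Gpr55 and S1pr5, scarce in EF, and Gpr3, Gpr83 and P2ry12, scarce in PDGFA. Those called are still counted among the 22 and the 15. As a sum, the 86 genes took 0.388% to 0.406% of each PDGFA library, against 0.31% to 0.465% of each EF library, so the ranges overlapped.

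**Figure D1:**
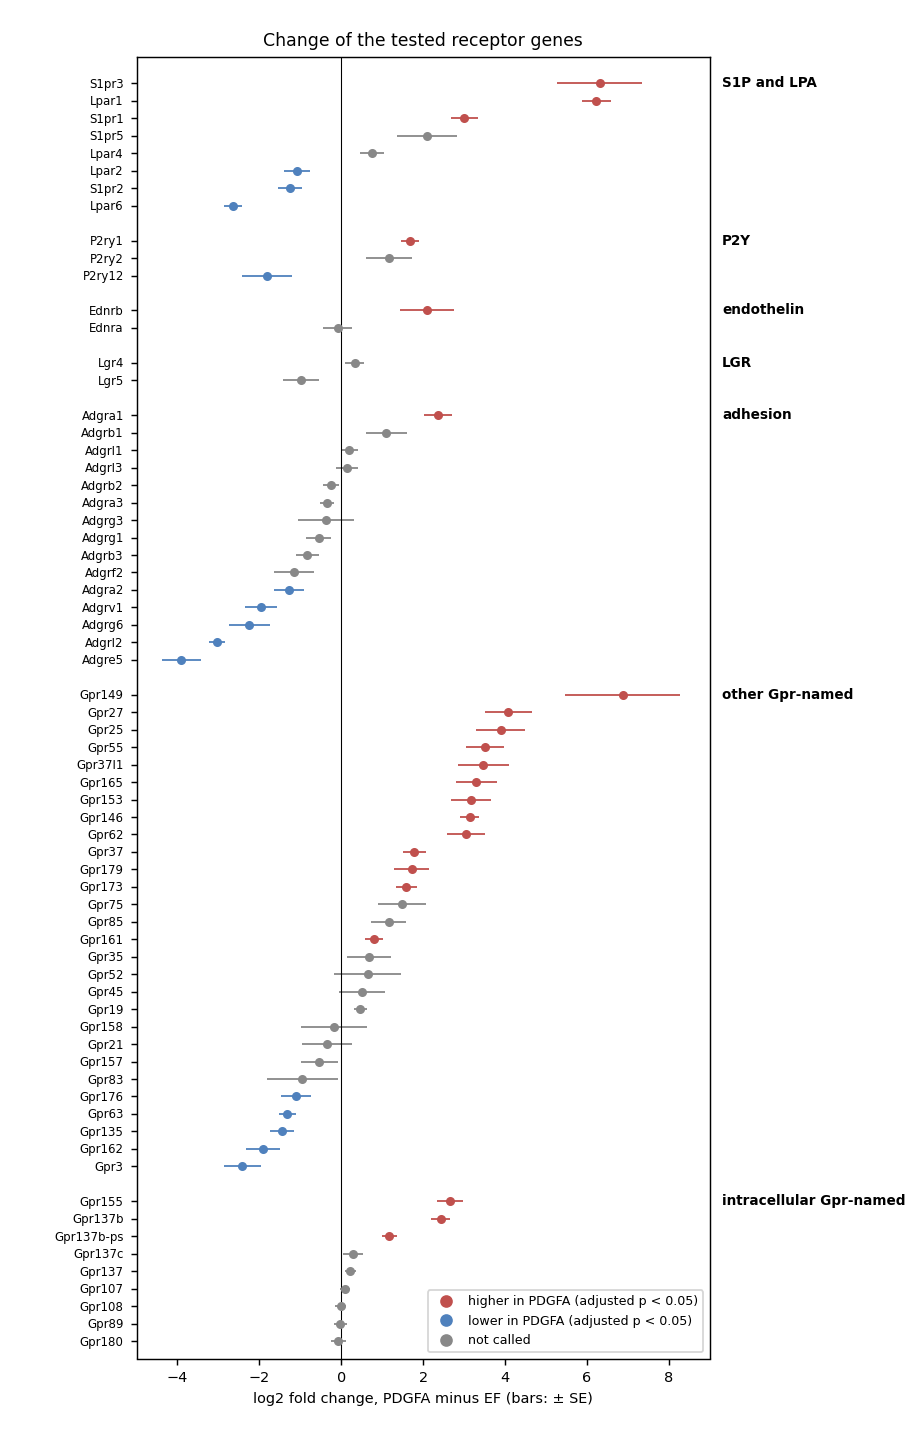
Log2 fold change (PDGFA minus EF, horizontal axis, ± SE) of 67 of the 69 tested receptor genes, grouped by class and ordered by size within each. Red points are the 22 genes called higher in PDGFA, blue points 14 of the 15 called lower and grey points 31 of the 32 not called. The largest rises, above 6, are Gpr149, S1pr3 and Lpar1, and the lowest point is Adgre5.

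Lipid receptors of one family moved in opposite directions. Over all tested genes, 21.8% rose and 18% fell. Of 8 tested lipid receptors, S1pr3, Lpar1 and S1pr1 rose in PDGFA and Lpar6, S1pr2 and Lpar2 fell. Promoter sequences are shown for the 5 of these 6 genes that have an entry, so that the stretches before genes moving in opposite directions can be read side by side. Each is the 250 bases before the start listed by RefSeq (GRCm38.p6), 5′ to 3′ on the gene's own strand. Capitals mark 2 motifs searched on both strands: the E-box CANNTG, which basic helix-loop-helix factors bind, and the SOX-type words ACAAAG and ACAATG. They lie at chr13:51408368-51408617 (plus strand) for S1pr3, chr4:58553492-58553741 (minus strand, the most upstream of 3 listed starts) for Lpar1, chr14:73237641-73237890 (plus) for Lpar6, chr9:20976794-20977043 (minus) for S1pr2 and chr8:69822315-69822564 (plus) for Lpar2. S1pr1 is named only.
S1pr3: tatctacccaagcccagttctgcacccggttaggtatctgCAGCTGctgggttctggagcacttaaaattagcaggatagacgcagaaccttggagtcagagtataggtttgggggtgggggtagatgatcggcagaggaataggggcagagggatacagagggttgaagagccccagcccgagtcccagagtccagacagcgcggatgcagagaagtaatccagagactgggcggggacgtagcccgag
Lpar1: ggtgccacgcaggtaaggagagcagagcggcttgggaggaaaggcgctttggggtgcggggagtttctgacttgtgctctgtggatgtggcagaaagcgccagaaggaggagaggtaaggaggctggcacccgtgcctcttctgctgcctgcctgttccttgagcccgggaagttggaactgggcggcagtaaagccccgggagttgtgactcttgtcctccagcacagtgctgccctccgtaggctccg
Lpar6: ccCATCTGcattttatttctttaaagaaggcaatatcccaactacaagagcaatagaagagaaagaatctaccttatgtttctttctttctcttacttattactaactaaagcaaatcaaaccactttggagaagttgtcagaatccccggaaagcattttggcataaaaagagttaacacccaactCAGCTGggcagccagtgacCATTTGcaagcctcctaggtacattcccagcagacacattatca
S1pr2: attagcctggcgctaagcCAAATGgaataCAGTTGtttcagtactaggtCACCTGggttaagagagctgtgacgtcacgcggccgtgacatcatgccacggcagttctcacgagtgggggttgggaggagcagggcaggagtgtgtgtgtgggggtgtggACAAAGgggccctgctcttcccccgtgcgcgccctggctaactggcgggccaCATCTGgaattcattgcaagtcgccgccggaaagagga
Lpar2: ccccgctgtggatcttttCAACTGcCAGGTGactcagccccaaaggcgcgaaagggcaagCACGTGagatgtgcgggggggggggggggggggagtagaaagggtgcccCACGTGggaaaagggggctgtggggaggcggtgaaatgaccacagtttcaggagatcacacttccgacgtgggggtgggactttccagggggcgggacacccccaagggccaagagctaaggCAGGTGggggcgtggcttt

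The E-box occurred 1 time before S1pr3 and 0 times before Lpar1, the 2 that rose. It occurred 3 times before Lpar6, 4 times before S1pr2 and 5 times before Lpar2, the 3 that fell. Of all 32851 promoter windows of this length, 66.2% hold an E-box, with a median of 1 per window. A SOX-type word was found before S1pr2 only, 1 time, and 25.2% of all windows hold one. The dinucleotide CG, frequent in promoters of broadly used genes, occurred 9 times before S1pr3, 11 before Lpar1, 1 before Lpar6, 14 before S1pr2 and 11 before Lpar2, with a median of 6 over all windows. These matches describe letters in 5 windows and were not tested against the direction of change. The windows do not all lie outside the gene as GENCODE M21 draws it. That of Lpar1 lies inside the gene, which runs to base 58553898, and that of Lpar2 spans the gene's first base, 69822429.

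S1pr1, the S1P receptor coupled to Gi proteins and the most abundant of the family here, had 5821, 6348 and 8214 normalized counts in PDGFA libraries, against 482, 1063 and 1144 in EF libraries. The lowest PDGFA library was thus over 5-fold above the highest EF library, and the log2 fold change was 3.00 (adjusted p = 0.000428, SE 0.33). S1pr3, which couples to several G protein classes, had 744, 777 and 1647 normalized counts in PDGFA libraries, against 0.958, 24.8 and 37.1 in EF libraries. EF cells of mouse 62 had close to none of it, and every PDGFA library lay far above all 3 EF libraries. Its log2 fold change of 6.31 (adjusted p = 0.00278, SE 1.04) moved to 4.97 without the EF library of mouse 62 and to 7.12 without that of mouse 69, and it stayed called. S1pr2, known for coupling to the G12 and G13 proteins and for restraining cell movement, went the other way. It had 295, 319.9 and 333 normalized counts in PDGFA libraries, against 509, 1139 and 743 in EF libraries, and no library of one group reached into the other. The log2 fold change was -1.25 (adjusted p = 0.012, SE 0.29), a call that was lost without both libraries of mouse 68 (adjusted p = 0.094) or of mouse 69 (0.0752). S1pr5, the S1P receptor known from oligodendrocytes, had 20.4, 27.7 and 43 normalized counts in PDGFA libraries, against 11.5, 11.3 and 1.28 in EF libraries. That is low in both media, and the gene was not called (log2 fold change 2.09, adjusted p = 0.0536, SE 0.73), although the groups did not overlap. DESeq2 called it (adjusted p = 0.0414), as did the fit without the EF library of mouse 62 (0.0379).

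Lpar1, an LPA receptor found in oligodendrocytes and first described from the ventricular zone of the developing cortex, had 883, 1572 and 1141 normalized counts in PDGFA libraries, against 9.58, 19.1 and 16.6 in EF libraries. Its rise was the largest among the lipid receptors relative to its SE, with a log2 fold change of 6.23 (adjusted p = 2.62e-05, SE 0.35). Lpar6, an LPA receptor of the P2Y-like branch, had 112, 107 and 144 normalized counts in PDGFA libraries, against 678, 699 and 909 in EF libraries. EF libraries held several times more of it than any PDGFA library, and the log2 fold change was -2.64 (adjusted p = 0.000123, SE 0.22). Both were called under all 18 alternatives. Exons of Lpar6 overlap those of Rb1 on the other strand, and the library kit does not mark strand. Rb1 itself rose (log2 fold change 0.96, adjusted p = 0.000867), opposite to Lpar6.

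Lpar2, of the same branch as Lpar1, had 117, 116 and 180.1 normalized counts in PDGFA libraries, against 204, 288 and 391 in EF libraries. The groups stood apart by little, and the log2 fold change was -1.07 (adjusted p = 0.0318, SE 0.32). The call was lost without the PDGFA library of mouse 62 (adjusted p = 0.107) or 68 (0.118), or the EF library of mouse 68 (0.0756) or 69 (0.0736). Lpar4, the P2Y-like relative of Lpar6, had 391, 524 and 496 normalized counts in PDGFA libraries, against 196, 399 and 268 in EF libraries. The EF library of mouse 68 reached the PDGFA range, and the log2 fold change of 0.76 (adjusted p = 0.0708, SE 0.29) was not called. Without that library it was 1.02 and called (adjusted p = 0.0226). Lpar3 and Lpar5 stayed below the filter, with at most 5.94 normalized counts in PDGFA libraries and 21.7 in EF libraries.

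**Figure D2:**
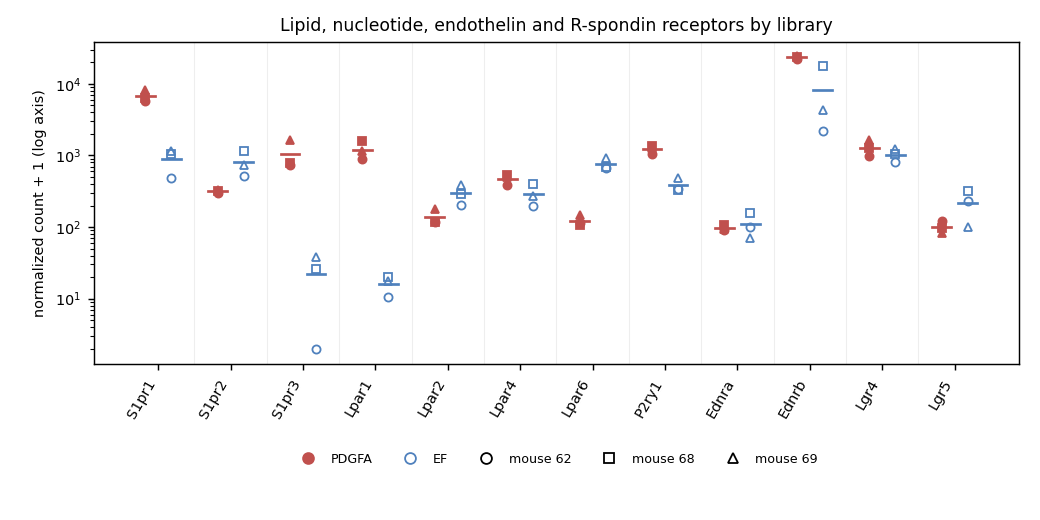
Normalized count + 1 (log axis) of the 12 lipid, nucleotide, endothelin and R-spondin receptors with a group mean of at least 100, in each library. Filled red symbols are PDGFA and open blue symbols EF, the shape gives the mouse and short lines are group means. Before 1 is added, Lpar1 and S1pr3 have at least 744.3 normalized counts in every PDGFA library and at most 37.1 in every EF library, while Lpar6, S1pr2 and Lpar2 lie lower in PDGFA.

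Levels divided by exon length give the make-up of each family. Among the 6 LPA receptors, Lpar1 held 62.8% ± 5.09 of the summed level per kb in PDGFA, against 1.27% ± 0.256 in EF (SD, n = 3 each). Lpar6 held 5.26% ± 1.34 in PDGFA, against 52.1% ± 6.88 in EF. Lpar4 held similar shares in both media, with 25.5% ± 1.99 in PDGFA and 24.7% ± 6.87 in EF. Among the S1P receptors S1pr1 led in both media, with 88.9% ± 2.21 in PDGFA and 72.6% ± 5.21 in EF. Behind it stood S1pr3 in PDGFA (9.07% ± 2.38, against 0.98% ± 0.829 in EF) and S1pr2 in EF (1.61% ± 0.233 in PDGFA, against 25.4% ± 5.08 in EF). The leading LPA receptor thus differed between the media, and the leading S1P receptor did not. These shares are descriptions, given without a test.

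**Figure D3:**
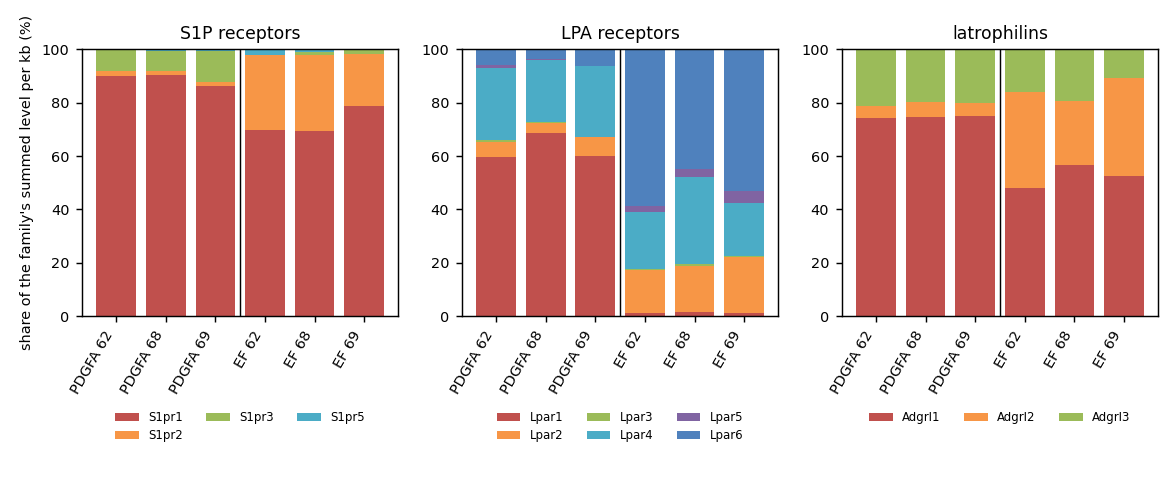
Share (%, vertical axis) of each member in the summed level per kb of its family, for S1P receptors, LPA receptors and latrophilins, with 1 bar per library, PDGFA left and EF right of the line. Lpar1 fills 59.6% to 68.7% of the PDGFA bars and at most 1.55% of the EF bars. Adgrl2 fills 4.31% to 5.63% of the PDGFA bars and 24% to 36.8% of the EF bars.

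Nucleotide receptors showed 1 clear rise. P2ry1, the Gq-coupled receptor for ADP, had 1041, 1354 and 1274 normalized counts in PDGFA libraries, against 343, 325 and 489.6 in EF libraries. All PDGFA libraries lay above all EF libraries, and the log2 fold change was 1.68 (adjusted p = 0.000759, SE 0.21), called under all 18 alternatives. P2ry12, the Gi-coupled ADP receptor known from microglia and platelets and named here after its values were seen, had only 6.79, 2.86 and 5.38 normalized counts in PDGFA libraries, against 11.5, 13.5 and 44.7 in EF libraries. The fall (log2 fold change -1.81, adjusted p = 0.0484, SE 0.61) was lost with the mouse as a block (adjusted p = 0.059) and without any 1 library other than EF 62, with adjusted p between 0.0677 and 0.163. Without the EF library of mouse 69 its log2 fold change was -1.22. Exons of P2ry12 overlap those of Med12l on the other strand. Of 15 microglia and macrophage markers, only Csf1r and Cd68 had a row in the table, and Csf1r averaged 2.72 normalized counts in PDGFA and 0.375 in EF. P2ry2 was not called, and P2ry4 and P2ry6 were below the filter.

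Ednrb, the endothelin receptor that binds all endothelins and is known from astrocytes and the neural crest, was the most abundant gene of the whole set in PDGFA. It had 22479, 23751 and 24330.3 normalized counts in PDGFA libraries, against 2218, 17781 and 4274 in EF libraries. PDGFA libraries were close to one another, while the EF library of mouse 68 was over 4-fold above the other EF libraries and still below every PDGFA library. The log2 fold change was 2.09 (adjusted p = 0.0392, SE 0.66). It was 2.93 without the EF library of mouse 68 (adjusted p = 0.000669) and 1.43 without that of mouse 62, where the call was lost (0.0731). It was also lost with edgeR (adjusted p = 0.115), without the EF library of mouse 69 (0.102) and without the PDGFA library of mouse 62, 68 or 69 (0.0887, 0.0964 and 0.106). Ednra, the endothelin receptor of vascular muscle, had 90.8, 106 and 93.2 normalized counts in PDGFA libraries, against 98.6, 158 and 69 in EF libraries, so the groups overlapped, and its log2 fold change of -0.09 (adjusted p = 0.864, SE 0.35) was not called. Without the EF library of mouse 68 that value was 0.22.

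Lgr4 and Lgr5 bind R-spondins and so strengthen Wnt signals, and Lgr5 marks stem cells of the gut. Lgr4 had 971, 1266 and 1629 normalized counts in PDGFA libraries, against 813, 1032 and 1212 in EF libraries, with overlapping groups and a log2 fold change of 0.33 (adjusted p = 0.304, SE 0.23). Lgr5 had 121, 95.5 and 82.4 normalized counts in PDGFA libraries, against 229.8, 323 and 99.7 in EF libraries. The EF libraries of mice 62 and 68 stood above all PDGFA libraries and that of mouse 69 did not, and the log2 fold change of -0.98 (adjusted p = 0.116, SE 0.44) was not called. Without the EF library of mouse 69 it was -1.46 and called (adjusted p = 0.0101), and DESeq2 called it too (0.0307). Lgr6 was below the filter, so no LGR receptor was called by limma or edgeR over the 6 libraries. At an unadjusted p under 0.05, limma had 0, edgeR 1 and DESeq2 1.

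Of 15 tested adhesion receptors, 9 were not called. Another 5 fell and 1 rose, where 18% of all tested genes fell and 21.8% rose, and the median log2 fold change was -0.55, against -0.01 over all tested genes. Adgrl2, a latrophilin, one of a family that binds teneurins and FLRT proteins across synapses, had 1441, 1764 and 1162 normalized counts in PDGFA libraries, against 11473, 10305 and 13991 in EF libraries. EF libraries held several times more than any PDGFA library, and the log2 fold change was -3.04 (adjusted p = 3.75e-05, SE 0.19). Its relatives Adgrl1 and Adgrl3 did not follow. Adgrl1 had 15070.1, 14137 and 11514 normalized counts in PDGFA libraries, against 9153, 14731 and 12096 in EF libraries. Adgrl3 had 8896, 7732 and 6409.6 normalized counts in PDGFA libraries, against 6269, 10422 and 5077 in EF libraries. In both the groups overlapped. Their log2 fold changes were 0.20 (adjusted p = 0.49, SE 0.21) and 0.14 (adjusted p = 0.718, SE 0.27), and the sign for Adgrl3 turned without the EF library of mouse 69 (-0.09). Per kb, Adgrl2 held 4.84% ± 0.698 of the latrophilin sum in PDGFA, against 32.3% ± 7.25 in EF.

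Adgre5, also called CD97 and known from immune cells as a partner of CD55, had 115, 111 and 153 normalized counts in PDGFA libraries, against 942, 1758 and 4050.0 in EF libraries. It had the largest fall of the set among called genes, with a log2 fold change of -3.91 (adjusted p = 0.000705, SE 0.48), and the EF libraries themselves spanned about 4-fold. Exons of Adgre5 overlap those of Ddx39 on the other strand, which also fell (log2 fold change -1.19, adjusted p = 0.0206), and reads from the shared stretch cannot be told apart. Adgrg6, known as GPR126 and required for myelination by Schwann cells, had 125, 164 and 249 normalized counts in PDGFA libraries, against 377, 983 and 1488 in EF libraries. All PDGFA libraries lay below all EF libraries, with a log2 fold change of -2.25 (adjusted p = 0.0106, SE 0.50). Adgrv1, a very large receptor known from hair cells of the inner ear, had 408, 342 and 237 normalized counts in PDGFA libraries, against 1931, 1432 and 699 in EF libraries. The groups did not overlap there either, and the log2 fold change was -1.95 (adjusted p = 0.00619, SE 0.39). Both calls were lost without both libraries of mouse 68 (adjusted p = 0.0931 for Adgrg6 and 0.0603 for Adgrv1).

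Within the ADGRA family the members went different ways. Adgra1, an orphan expressed mainly in the nervous system, had 927, 968 and 1118 normalized counts in PDGFA libraries, against 305, 206 and 114 in EF libraries. It was the single adhesion receptor that rose, with a log2 fold change of 2.37 (adjusted p = 0.00153, SE 0.34). Adgra2, known as GPR124 and as a Wnt7 co-receptor of brain vessels, had 125, 71.6 and 66.3 normalized counts in PDGFA libraries, against 148, 196 and 299 in EF libraries. The groups did not overlap, but the fall of -1.28 (adjusted p = 0.0292, SE 0.37) was lost with the mouse as a block (adjusted p = 0.0554). It was also lost without the PDGFA library of mouse 68 (0.107) or 69 (0.101) and without the EF library of mouse 68 (0.0639) or 69 (0.0701), and without both libraries of mouse 68 (0.191) or 69 (0.173). Adgra3 had 2775, 3188 and 2739 normalized counts in PDGFA libraries, against 2933, 3814 and 4427 in EF libraries and was not called (log2 fold change -0.34, adjusted p = 0.16, SE 0.18). Without the EF library of mouse 62 it was called lower, at -0.51 (adjusted p = 0.0212).

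Adgrg1, Adgrb1, Adgrb2 and Adgrb3 were abundant and not called, unlike the abundant Adgrl2, which was called lower. Adgrg1, known as GPR56 and as a regulator of cortical development and of oligodendrocyte precursor division, had 15549.6, 16122 and 22530.3 normalized counts in PDGFA libraries, against 17598, 38274 and 26365 in EF libraries. The groups overlapped and the EF library of mouse 68 was the highest of all 6, with a log2 fold change of -0.55 (adjusted p = 0.184, SE 0.30). That value was -0.27 without the EF library of mouse 68 (adjusted p = 0.449), and -0.83 and called without that of mouse 62 (0.0303). The BAI receptors bind C1q-like proteins and cell-surface lipids, and act at synapses and in engulfment. Adgrb1 had 4406, 4091 and 3543 normalized counts in PDGFA libraries, against 1201, 4614 and 1158 in EF libraries. The EF library of mouse 68 exceeded every PDGFA library while the other two EF libraries were about 3-fold below them, and the log2 fold change of 1.10 (adjusted p = 0.115, SE 0.50) was not called. Without that library it was 1.76 and called (adjusted p = 0.000463). Adgrb2 had 13055, 12547 and 12124 normalized counts in PDGFA libraries, against 11519, 18289 and 15703 in EF libraries, a log2 fold change of -0.25 (adjusted p = 0.346, SE 0.19). It was -0.10 without the EF library of mouse 68 (adjusted p = 0.707), and was called lower, at -0.43, without that of mouse 62 (0.0328). Adgrb3 had 2058, 2097 and 3225 normalized counts in PDGFA libraries, against 4771, 5606 and 2893 in EF libraries. The PDGFA library of mouse 69 overlapped the EF range, and the log2 fold change of -0.82 (adjusted p = 0.0519, SE 0.28) missed the threshold. It was called lower by DESeq2 (adjusted p = 0.0208), without the PDGFA library of mouse 69 (-1.04, adjusted p = 0.043) and without the EF library of mouse 69 (-1.10, adjusted p = 0.0115).

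Of 30 tested orphans and other Gpr-named receptors, 13 rose, 6 fell and 11 were not called, where 21.8% of all tested genes rose and 18% fell. The pair Gpr37 and Gpr37l1, for which prosaposin has been proposed as a ligand, rose together. Gpr37l1, known from astrocytes, had 9569, 9308 and 11069 normalized counts in PDGFA libraries, against 894, 2476 and 325 in EF libraries. PDGFA libraries were close together, and the EF library of mouse 68 came nearest to them from below. The log2 fold change of 3.47 (adjusted p = 0.00424, SE 0.63) became 4.20 without the EF library of mouse 68 and 2.74 without that of mouse 69. Gpr37, known from oligodendrocytes and named after its values were seen, had 327, 487 and 490.1 normalized counts in PDGFA libraries, against 94.8, 146 and 134 in EF libraries, without overlap, and a log2 fold change of 1.79 (adjusted p = 0.00197, SE 0.27).

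The 3 SREB receptors, orphans that are strongly conserved among vertebrates and expressed in brain, are Gpr27, Gpr85 and Gpr173, and the 2 last named were picked after their values were seen. Gpr27 had 213, 250.2 and 119 normalized counts in PDGFA libraries, against 14.4, 16.9 and 3.84 in EF libraries. It was low in EF in all 3 mice, and the log2 fold change of 4.08 (adjusted p = 0.00133, SE 0.57) became 3.49 without the EF library of mouse 69. Gpr173 had 766, 842 and 779 normalized counts in PDGFA libraries, against 199, 376 and 244 in EF libraries, again without overlap, with a log2 fold change of 1.59 (adjusted p = 0.00227, SE 0.25). Gpr85 had 389.6, 383 and 280.4 normalized counts in PDGFA libraries, against 155, 281 and 85.7 in EF libraries, where the EF library of mouse 68 overlapped the PDGFA range. Its log2 fold change of 1.15 (adjusted p = 0.0627, SE 0.42) was not called, but passed with mouse as a block (adjusted p = 0.0321) and, at 1.58, without the EF library of mouse 68 (0.0139).

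Gpr149, an orphan, had the largest log2 fold change of the tested receptor genes and also the largest SE. It had 892, 717 and 293 normalized counts in PDGFA libraries, against 0.958, 58.5 and 0 in EF libraries. In reads the EF libraries held 1, 52 and 0, so nearly all EF signal came from mouse 68, still below every PDGFA library. The log2 fold change of 6.88 (adjusted p = 0.00728, SE 1.41) was 6.22, 8.68 and 5.73 without the EF library of mouse 62, 68 and 69, and the call was lost without both libraries of mouse 62 (adjusted p = 0.0582). Gpr146, an orphan linked to cholesterol handling in the liver, had 1680.5, 2033 and 1837 normalized counts in PDGFA libraries, against 186, 295 and 167 in EF libraries. Its libraries agreed closely within each group, and the log2 fold change was 3.13 (adjusted p = 7.75e-05, SE 0.24). Gpr153, an orphan, had 1263, 1189 and 1085 normalized counts in PDGFA libraries, against 164, 238 and 55 in EF libraries, without overlap. The log2 fold change of 3.18 (adjusted p = 0.00199, SE 0.49) became 2.57 without the EF library of mouse 69. Its close relative Gpr162 moved the other way. Gpr162 had 475, 516 and 785 normalized counts in PDGFA libraries, against 1181, 3954 and 2184 in EF libraries, with every PDGFA library below every EF library and a log2 fold change of -1.91 (adjusted p = 0.00984, SE 0.42). That call was lost without both libraries of mouse 68 (adjusted p = 0.0615) or of mouse 69 (0.0527).

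A further 3 orphans rose from low EF levels. Gpr165 had 384, 419 and 267 normalized counts in PDGFA libraries, against 23, 78.8 and 23 in EF libraries, a log2 fold change of 3.29 (adjusted p = 0.00197, SE 0.50). Gpr25 had 131, 111 and 61.8 normalized counts in PDGFA libraries, against 13.4, 4.5 and 2.56 in EF libraries, a log2 fold change of 3.89 (adjusted p = 0.00191, SE 0.59). With a mean of 6.82 in EF, Gpr25 passed the filter through its PDGFA libraries. Gpr62 had 115, 107 and 108 normalized counts in PDGFA libraries, against 5.75, 19.1 and 16.6 in EF libraries, a log2 fold change of 3.05 (adjusted p = 0.00206, SE 0.47). In none of the 3 did the groups overlap, and PDGFA libraries of Gpr62 were within 10% of one another. Exons of Gpr62 overlap those of Pcbp4 on the other strand, which rose as well (log2 fold change 1.14, adjusted p = 0.0247). Of the called orphans outside the rule for named genes, Gpr55, a receptor for lysophosphatidylinositol, rose (log2 fold change 3.51, adjusted p = 0.001, SE 0.47) with at most 41.2 normalized counts in any library. Its exons overlap those of 4933407L21Rik on the other strand, which also rose (log2 fold change 1.53, adjusted p = 0.00512). That gene had a mean of 207 in PDGFA and 72.6 in EF, against 32.4 and 1.82 for Gpr55, and reads from the shared stretch cannot be told apart. Gpr161, a receptor of the primary cilium that restrains hedgehog signals, rose by the least of any called gene (log2 fold change 0.80, adjusted p = 0.0244, SE 0.22). That call was lost without the PDGFA library of mouse 62, 68 or 69 (adjusted p = 0.0764, 0.0933 and 0.0551). Gpr179, known from retinal bipolar cells, rose too (log2 fold change 1.72, adjusted p = 0.016, SE 0.43) and lost its call without the PDGFA library of mouse 62 (0.0629) or 69 (0.0614).

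Among the orphans that fell, Gpr63 and Gpr135 had tight groups. Gpr63 had 112, 116 and 102 normalized counts in PDGFA libraries, against 264, 277 and 283 in EF libraries, a log2 fold change of -1.31 (adjusted p = 0.00241, SE 0.21). Gpr135 had 41.6, 31.5 and 42.1 normalized counts in PDGFA libraries, against 105, 109 and 101 in EF libraries, a log2 fold change of -1.44 (adjusted p = 0.00647, SE 0.29). Every PDGFA value lay below every EF value for both, and both calls were lost without both libraries of mouse 68 (adjusted p = 0.057 for Gpr63 and 0.12 for Gpr135). Scarcer genes that fell, named after their values were seen, included the constitutively Gs-active Gpr3 (log2 fold change -2.41, adjusted p = 0.00504, SE 0.45) and Gpr176, known from the circadian clock centre of the hypothalamus (log2 fold change -1.11, adjusted p = 0.0492, SE 0.37). Gpr3, with a mean of 6.77 in PDGFA, passed the filter through its EF libraries. It lost its call without both libraries of mouse 68 (adjusted p = 0.0911). Gpr176 lost its call with mouse as a block (adjusted p = 0.0876) and without any 1 library other than EF 69, with adjusted p between 0.0673 and 0.153. The abundant orphan Gpr19 had 1220.5, 1365 and 1675 normalized counts in PDGFA libraries, against 1026, 1067 and 981 in EF libraries, above EF in every PDGFA library. Its log2 fold change of 0.46 (adjusted p = 0.0522, SE 0.16) was not called, while edgeR and DESeq2 called it (adjusted p = 0.0476 and 0.0362).

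**Figure D4:**
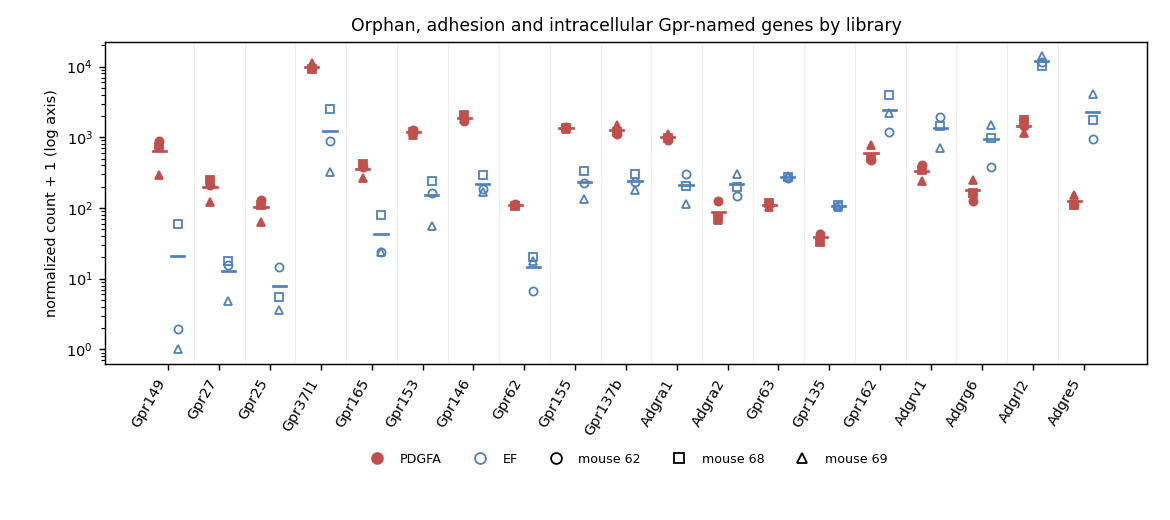
Normalized count + 1 (log axis) in each library for 19 adhesion, orphan and intracellular Gpr-named genes. They are among the 14 largest called rises and 10 largest called falls of receptor genes whose higher group mean reached 100. Genes are ordered from the largest rise (left) to the largest fall (right). Filled red symbols are PDGFA, open blue symbols EF, shapes are mice and short lines group means. The groups do not overlap for any of the 19, and EF values of Gpr149 run from 0 to 58.5 before 1 is added.

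The 9 Gpr-named genes of inner membranes held 3 rises and 0 falls by limma, where 21.8% of all tested genes rose and 18% fell. On the same libraries, edgeR and DESeq2 gave the same counts. At an unadjusted p under 0.05 each of the 3 tools also had 0 falls. Gpr155, a cholesterol sensor of lysosomes, had 1398, 1359.7 and 1319.7 normalized counts in PDGFA libraries, against 226, 328 and 132 in EF libraries, with a log2 fold change of 2.66 (adjusted p = 0.000578, SE 0.31). Gpr137b, a lysosomal membrane protein, had 1108, 1184 and 1504 normalized counts in PDGFA libraries, against 236, 299 and 178 in EF libraries, with a log2 fold change of 2.43 (adjusted p = 0.000241, SE 0.24). Neither showed any overlap of the groups. Gpr137b has a near-identical copy, the pseudogene Gpr137b-ps, which was called higher as well (log2 fold change 1.18, adjusted p = 0.00256, SE 0.19). The pseudogene is counted among the 3 rises, and the split of reads between the copies is uncertain. The other abundant genes of this class were close to even. Gpr107 had 3009, 3296 and 3319 normalized counts in PDGFA libraries, against 3133, 3182 and 2723 in EF libraries. Gpr108 had 986, 963 and 1063 normalized counts in PDGFA libraries, against 1027, 1016 and 996 in EF libraries. Gpr137 had 1340.2, 1302 and 1367 normalized counts in PDGFA libraries, against 1017, 1169 and 1261 in EF libraries. Gpr89, the Golgi pH regulator, had 1321, 1332 and 1049 normalized counts in PDGFA libraries, against 1271, 1353 and 1133 in EF libraries. Log2 fold changes of these 4 lay between -0.03 and 0.22, and none was called.

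Per kb of exon, the order of the receptors differed between the media. Ednrb led in PDGFA with a mean level of 5513 normalized counts per kb, followed by Gpr37l1 (4399), Adgrg1 (3333), S1pr1 (2231), Adgrb2 (1939) and Adgrl1 (1581). In EF, Adgrg1 led with 5057 per kb, followed by Adgrb2 (2339), Ednrb (1897), Adgrl1 (1397) and Adgrl2 (839.8). EF libraries ran from 3246 to 7060 per kb for Adgrg1 and from 1776 to 2819 for Adgrb2, without overlap. Ednrb ran from 519.9 to 4168 and overlapped both. In PDGFA, Ednrb lay between 5269 and 5703 and Gpr37l1 between 4102 and 4879, without overlap.

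**Figure D5:**
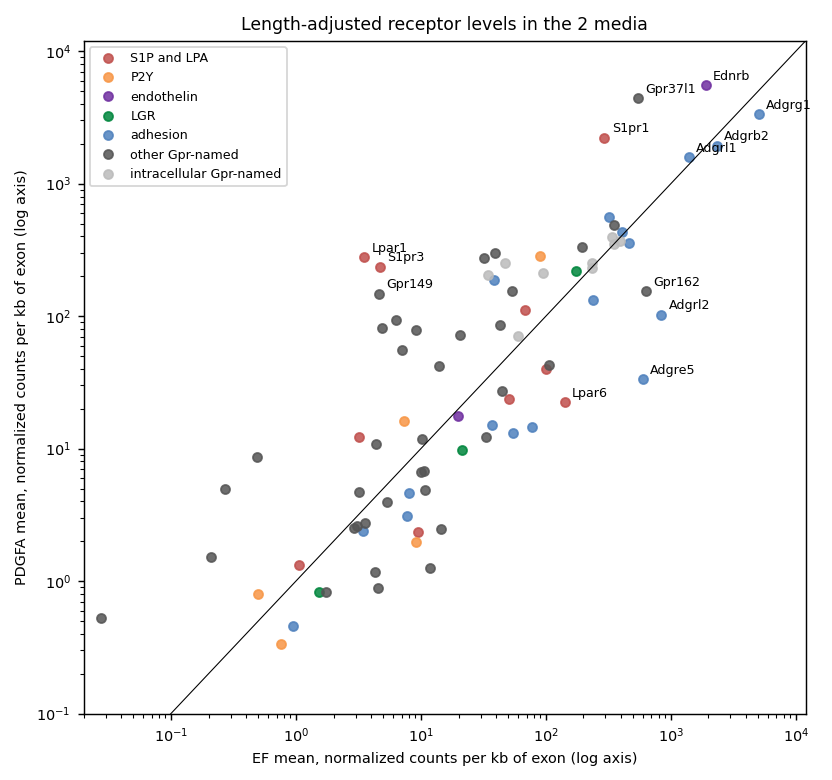
Mean level per kb of exon in PDGFA (vertical) against EF (horizontal), both on log axes, for the 83 receptor genes with an exon length and a mean above 0 in both groups, coloured by class. The line marks equal levels. S1pr1 (2231 in PDGFA), Gpr37l1 (4399) and Ednrb (5513) stand above the line at the top, and Adgre5, Adgrl2, Gpr162 and Lpar6 below it.

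A further 13 tested genes were not called and are given by their range. They included Adgrf2, Adgrg3, Gpr21, Gpr35, Gpr45, Gpr52, Gpr75, Gpr83, Gpr137c, Gpr157, Gpr158 and Gpr180, with log2 fold changes between -1.15 for Adgrf2 and 1.48 for Gpr75. In those 2 the groups did not overlap. The 17 untested genes had at most 30.7 normalized counts in any library. They included Adgrf4, Adgrg2, Gpr4, Gpr6, Gpr15, Gpr22, Gpr26, Gpr31c, Gpr50, Gpr152, Lgr6, Lpar3, Lpar5, P2ry4 and P2ry6. Gpr22, an orphan, had 15, 25 and 11 reads in PDGFA libraries and 0 in all EF libraries. Against a floor of 3 reads over the EF group it was at least 13.8-fold higher in PDGFA. Gpr31c had 0 reads in all PDGFA libraries and 3, 23 and 10 in EF libraries, at least 15.4-fold lower in PDGFA against the same kind of floor. The floor covers counting error only, and both genes are named after their values were seen.

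Genes that make, carry or answer the ligands were counted from 10 lists, where 21.8% of all tested genes rose and 18% fell. For LPA and S1P metabolism, 9 of 23 tested genes rose, 2 fell and 12 were not called. Spns2, the S1P exporter, had 2014, 1913 and 1725 in PDGFA libraries, against 182, 285 and 86.9 in EF libraries, without overlap (log2 fold change 3.50, adjusted p = 0.000472). Plpp3, a phosphatase that degrades LPA and S1P outside the cell, had 17664, 24750.1 and 27354 in PDGFA libraries, against 10173, 14049.9 and 8135 in EF libraries (log2 fold change 1.12, adjusted p = 0.011). That call was lost without both libraries of mouse 69 (adjusted p = 0.0839). Liph, which makes LPA from phosphatidic acid, fell and had 10.2, 3.82 and 4.48 in PDGFA libraries, against 134, 125 and 268 in EF libraries (log2 fold change -4.64, adjusted p = 0.000339). Enpp2 encodes autotaxin, the main enzyme that makes LPA, and is named after its values were seen. It had 4898, 5234 and 5102 in PDGFA libraries, against 373, 1210.3 and 144 in EF libraries (log2 fold change 3.65, adjusted p = 0.00408). That value was 4.44 without the EF library of mouse 68 and 2.92 without that of mouse 69. Lpar1 and the enzyme that makes its ligand were thus both higher in PDGFA, in every library.

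For nucleotide enzymes and release channels, 5 of 12 rose and 5 fell. Entpd2, which cleaves extracellular ATP to ADP, the ligand of P2ry1, had 1341, 1383 and 1823 in PDGFA libraries, against 6.7, 5.63 and 3.84 in EF libraries (log2 fold change 7.90, adjusted p = 9.49e-06). Of 4 tested genes for endothelin processing, 2 rose, with Ece1, the endothelin-converting enzyme, at 4717, 4821 and 4387 in PDGFA libraries, against 2224, 3576 and 2815 in EF libraries (log2 fold change 0.72, adjusted p = 0.0185). Its call was lost without the PDGFA library of mouse 62, 68 or 69 (adjusted p = 0.0643, 0.076 and 0.051). The other rise was of the scarcer Mme, with a mean of 45.6 in PDGFA and 2.08 in EF (log2 fold change 4.06, adjusted p = 0.00333). The endothelin genes Edn1, Edn2 and Edn3 had no row in the table. Of 4 tested R-spondin and LGR partners, 1 rose and 1 fell. The fall was of Znrf3, a ubiquitin ligase that R-spondins and LGR receptors remove from the membrane. It had 1207, 1386 and 1182 in PDGFA libraries, against 3026, 2881 and 3264 in EF libraries (log2 fold change -1.28, adjusted p = 0.000307). Among ligands of adhesion and orphan receptors, 7 of 23 rose and 2 fell. They included Tenm4, a teneurin, with 2085, 2741 and 2323 in PDGFA libraries, against 335, 233 and 242 in EF libraries (log2 fold change 3.15, adjusted p = 3.57e-05), opposite to the latrophilin Adgrl2. Psap, which encodes prosaposin, also rose (log2 fold change 0.88, adjusted p = 0.0165), and lost its call without the PDGFA library of mouse 68 (adjusted p = 0.0608) or 69 (0.0668).

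Downstream components moved both ways. Of G protein alpha subunits, 3 of 12 rose and 1 fell. Of beta and gamma subunits, 4 of 13 rose and 2 fell, and Gng4 had 1229, 1307 and 1471 in PDGFA libraries, against 2.87, 4.5 and 0 in EF libraries (log2 fold change 8.91, adjusted p = 5.18e-05, and 8.17 without the EF library of mouse 69). RGS proteins, which switch G proteins off, held 5 rises and 5 falls of 17. Rgs7 and its anchor Rgs7bp fell together, by 2.45 and 2.42 on the log2 scale. Receptor kinases and arrestins held 4 rises and 1 fall of 11, with Arrb1, beta-arrestin 1, at 4471, 4417 and 4239 in PDGFA libraries, against 718, 1363 and 1314 in EF libraries (log2 fold change 2.01, adjusted p = 0.000699). Adenylyl cyclases and cAMP phosphodiesterases held 6 rises and 5 falls of 16, with Pde4d at 7132, 6412 and 5231 in PDGFA libraries, against 650.2, 949 and 563 in EF libraries (log2 fold change 3.14, adjusted p = 5.69e-05). Together 46 of 135 tested partners rose (34.1%) and 24 fell (17.8%), against 21.8% and 18% of all tested genes.

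Cell type markers also differed between the media, and their part in the receptor changes was not tested. Over all tested genes, 21.8% rose and 18% fell. All 12 markers of maturing oligodendrocytes rose, with summed counts of 359420 to 440510 in PDGFA libraries and 2810 to 5332 in EF libraries. Of 12 astrocyte markers 8 rose, with sums of 196297 to 306401 in PDGFA and 59813 to 108058 in EF. Of 8 markers of dividing progenitors 7 fell and 1 rose, with sums of 40824 to 50108 in PDGFA and 126731 to 251893 in EF. Of 9 markers of oligodendrocyte precursors 3 rose and 3 fell, with sums of 121987 to 164389 in PDGFA and 162880 to 313248 in EF. Neuron markers rose for 3 of 9 tested (38648 to 48394 in PDGFA, 31754 to 34546 in EF). Of 10 endothelial markers 7 had a row (270.2 to 361.1 in PDGFA, 116.3 to 520.2 in EF), and of 10 pericyte and fibroblast markers 7 had a row (809.7 to 963.3 in PDGFA, 79.3 to 162.1 in EF). Of the 3 pericyte and fibroblast markers tested, Pdgfrb and Rgs5 rose and Col1a1 fell, and Pdgfrb, with a mean of 814.7 in PDGFA and 21.9 in EF, made up most of the PDGFA sums. No marker with a row was at 0 in all 6 libraries. Progenitor markers of the labelled cell type were read in every library, Sox2 being the 1 that rose and Nes among the 7 that fell.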

How the data were processed

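Polyadenylated RNA of 6 cultures was sequenced after NEBNext Ultra II (E7770) library preparation, per the labels' protocols, with a kit that leaves strand unmarked. The deposited values are a normalized signal: the authors scaled each library's read count of a gene by a size factor. STAR, DESeq2, FastQC and the build mm10 (GRCm38) are named per the submitters' processing notes. Annotation and counting strand are not given in the sources used. Dividing by each library's lowest non-zero value gave whole numbers for 100% of values (within 0.001), which recovered the reads. Groups and mice come from the sample titles.

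The test was limma 3.58.1 in R 4.3.3 on log2(normalized count + 1) (mean trend, group as the only term, two-sided, Benjamini-Hochberg at 0.05). The fit covered the 17068 genes with a mean of at least 10 and left out 4989. Fold changes on this scale understate the change of genes with few reads. On recovered reads, edgeR 4.0.16 called 3592 genes higher and 3263 lower in PDGFA, and DESeq2 1.42.0 called 3942 and 3746, against 3720 and 3076 with limma. Counting error limits low genes, and no molecular identifiers are named.

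Libraries of a group differed beyond counting noise (20.0 to 140 chi-square units per degree of freedom). The same mice gave both groups, so libraries pair by animal. Deviations from group means correlated at -0.091, 0.11 and -0.11 for mice 62, 68 and 69. Between libraries of different mice these correlations ran from -0.123 to 0.162. The labels do not say whether cultures were otherwise separate.

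Values in every library are given for called receptor genes with the 14 strongest rises or 10 strongest falls, if their higher group mean reached 100. They are also given for tested lipid, P2Y, endothelin and LGR receptors with a group mean of at least 100, and for uncalled genes with a group mean of at least 1000. Receptor genes, lists, markers and the naming rule were chosen with earlier results of these data known. Some genes that were counted are not reported by name here. Exon lengths and overlaps are from GENCODE M21 (GRCm38), where 84 of 86 symbols matched a single gene. Exons of 33 overlap another gene, 29 of them on the other strand. Of 86 genes, 65 had a RefSeq promoter entry, and 57 of those were matched in strand to a GENCODE transcript. Alternatives were other pseudocounts (0.5 and 10), no filter, a mean of at least 50, TMM scaling, edgeR, DESeq2, the mouse as a block, and leaving out each library or both libraries of a mouse.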

Additional observations from a re-analysis of the deposited data

How the results depend on the processing

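Of 22 receptor genes called higher, 17 were called under all 18 alternatives (Gpr55 was not tested at a mean of at least 50), and 19 without any 1 library. Of 15 called lower, 3 were called under all 18 (Adgre5, Adgrl2 and Lpar6) and 11 without any 1 library. With mouse as a replicate block, 23 rose and 12 fell, against 22 and 15 without it: Adgra2, Gpr176 and P2ry12 were lost and Gpr85 gained. Over all tested genes the block gave 5839 calls, against 6796. Leaving out both libraries of mouse 68 gave 3 receptor genes lower (12 lost, with 22 higher), 15 signalling partners lower against 24, and 3280 calls over all genes, on 4 libraries. Leaving out 1 library gave 4161 to 8061 calls over all genes, the fewest without the PDGFA library of mouse 68.

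Of 43 receptor genes named by rule, 24 changed call or sign under some alternative and 19 did not. Signs turned only for uncalled genes. Without both libraries of mouse 62 the log2 fold change was -0.065 for Adgrl1, -0.047 for Adgrl3 and 0.0087 for Gpr108. Without those of mouse 68 it was 0.15 for Ednra and 0.018 for Gpr108. Without those of mouse 69 it was -0.0038 for Gpr107 and 0.016 for Gpr89. Leaving out 1 library gave -0.087 to 0.43 for Adgrl3, -0.37 to 0.22 for Ednra, -0.056 to 0.016 for Gpr108 and -0.096 to 0.087 for Gpr89. The cause was not tested. The 17 untested genes stayed below the mean of 10 normalized counts, and no call was made for them.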
